A study of Homo sapiens with 8 samples.

Results

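U3, U8 and U13 are box C/D small nucleolar RNAs (snoRNAs) that act in the processing of ribosomal RNA. Their genes were taken from the count table by symbol, as SNORD3A, SNORD3B-1, SNORD3B-2, SNORD3C and SNORD3D for U3, SNORD118 for U8 and SNORD13 for U13. These are 7 of the 58302 genes counted. The Ensembl identifiers of the table were matched to the symbols of GENCODE 44, in which SNORD3D has 2 identifiers, so that the 7 symbols take 8 entries. The genes were chosen with their values in these same libraries known. Their levels are therefore given as a description, without a test. The libraries came from A549, a cell line of human lung adenocarcinoma, and were collected 72 h after transfection. The siCTRL group received a scramble siRNA, and the siAPEX1 group an siRNA against APEX1, the gene of the DNA repair endonuclease APE1. There were 4 libraries in each group, all from total RNA of the same line. The study speaks of biological replicates, but neither the labels nor its methods describe separate cultures, so the p-values below measure only the spread between these libraries.

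Most box C/D snoRNAs guide the 2′-O-methylation of other RNAs, but U3, U8 and U13 are set apart. U3 base-pairs with the precursor of ribosomal RNA in the small subunit processome and is needed for the early cleavages that release 18S rRNA. U8 is a vertebrate snoRNA needed for the maturation of 5.8S and 28S rRNA, and U13 guides the acetylation of 18S rRNA by NAT10. All these RNAs can be transcribed from promoters of their own, like small nuclear RNAs, and carry a trimethylguanosine cap, whereas most human snoRNAs are cut from introns of a host gene. In most box C/D snoRNAs, box C and box D are the short motifs that bind the core proteins of the particle.

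The U3 genes differ so little that short stretches of them often fit more than one gene, which sets what their counts mean, so their sequences are shown first. The RNA of each is 217 bases long by its RefSeq coordinates. The SNORD3A RNA, read from GRCh38 at chr17:19188016-19188232 on the plus strand, is given 5′ to 3′ with its TGATGA (box C) and its last CTGA (box D) in capitals.
SNORD3A: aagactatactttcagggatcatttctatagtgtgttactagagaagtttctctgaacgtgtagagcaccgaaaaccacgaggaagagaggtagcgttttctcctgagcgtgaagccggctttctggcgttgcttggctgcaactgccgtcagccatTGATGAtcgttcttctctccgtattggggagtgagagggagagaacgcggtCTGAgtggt

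Positions were counted from 1 at the 5′ end of the RNA. Against SNORD3A, the difference in both SNORD3B-1 and SNORD3B-2 is A78C, the difference in SNORD3C is G108A, and the differences in SNORD3D are A4G, C53T and A78C. The identity with SNORD3A was 99.5% for SNORD3B-1, SNORD3B-2 and SNORD3C and 98.6% for SNORD3D. Positions 70 to 115 are given for each gene, 5′ to 3′, with positions 78 and 108 in capitals. In GRCh38 the stretches lie on chromosome 17 at chr17:19188085-19188130 (SNORD3A, plus strand), chr17:19061981-19062026 (SNORD3B-1, plus strand), chr17:19064022-19064067 (SNORD3B-2, minus strand), chr17:19190131-19190176 (SNORD3C, minus strand) and chr17:19112522-19112567 (SNORD3D, minus strand).
SNORD3A: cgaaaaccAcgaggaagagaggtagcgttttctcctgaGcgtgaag
SNORD3B-1: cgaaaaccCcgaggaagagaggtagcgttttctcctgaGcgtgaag
SNORD3B-2: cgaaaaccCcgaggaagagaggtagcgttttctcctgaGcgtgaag
SNORD3C: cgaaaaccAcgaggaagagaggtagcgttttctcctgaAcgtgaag
SNORD3D: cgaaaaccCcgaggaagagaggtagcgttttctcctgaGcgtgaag

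STAR's gene counting keeps only reads that align to one place and to one gene, so the stretches of each RNA that occur once in the genome were counted. Of the 187 stretches of 31 bases in the SNORD3A RNA, 1 occurred once on the primary chromosomes of GRCh38, the stretch from position 78 to position 108. It holds both positions that tell SNORD3A from its closest copies. Of the 118 stretches of 100 bases, the length of a full read, 70 occurred once (59.3%), the first of them beginning at position 9. SNORD3B-1 and SNORD3B-2 had no stretch of 31, 50, 75 or 100 bases that occurred once. SNORD3C had more such stretches than SNORD3A, with 100 of 118 at 100 bases (84.7%), and SNORD3D had 53 of 118 (44.9%). Stretches of 31 bases of the U3 RNAs occurred in up to 29 places, and stretches of 50 bases in up to 5. For U8 and U13 the limit is smaller. Every stretch of 50 bases of the SNORD118 and SNORD13 RNAs occurred once, and of the stretches of 31 bases 97.1% in SNORD118 and 62.2% in SNORD13 (46 of 74), with the others of SNORD13 in up to 6 places.

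**Figure D1:**
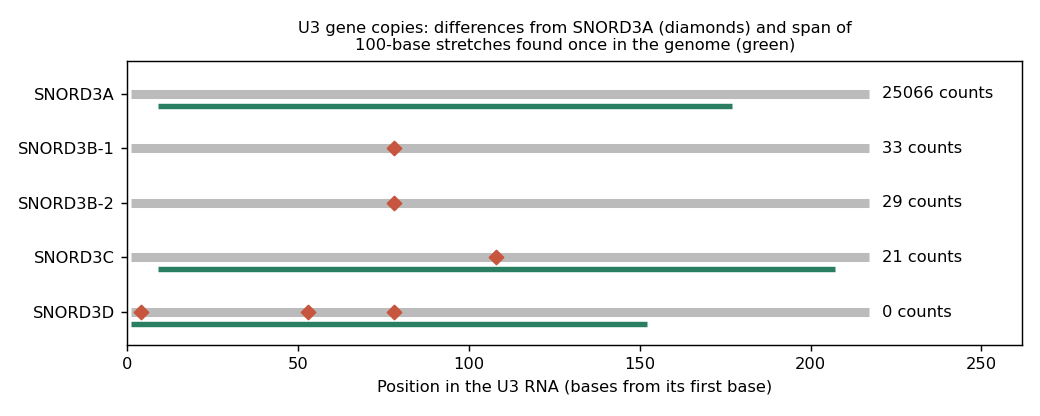
The 5 U3 gene copies, drawn along the 217 positions of the U3 RNA, with a diamond at each position that differs from SNORD3A, a green line over the span covered by 100-base stretches that occur once in the genome, and the total count over the 8 libraries at the right. SNORD3B-1 and SNORD3B-2 have no green line, and SNORD3A holds 25066 counts against 33, 29, 21 and 0 in the other copies.

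The libraries themselves held between 1348386 and 1949886 counts. Every siAPEX1 library was smaller than every siCTRL library, so library size and condition cannot be told apart. APEX1 had between 47 and 64 counts in the siCTRL libraries and between 19470 and 27916 in the siAPEX1 libraries, the opposite of what the labels say. Transcript and transfected siRNA cannot be told apart in counts per gene, so these counts are no measure of the silencing, and the groups are named here by their labels. Of 10 markers of A549 and epithelial cells, 9 passed the filter on low counts, with ALDH1A1 at 523 ± 15.1 (SD, n = 4) and 489 ± 23.5 CPM (SD, n = 4) in the siCTRL and siAPEX1 libraries. Of these 9 markers 3 rose and 4 fell. The keratins KRT8, KRT18 and KRT19 fell (log2 fold change −1.01, −1.36 and −2.31, edgeR adjusted p = 1.35e-07, 3.83e-13 and 1.93e-16). CDH1, AKR1B10 and AKR1C2 rose (log2 fold change 0.92, 0.83 and 0.44, edgeR adjusted p = 0.000245, 8.25e-09 and 0.000204). None of 12 markers of other cell types passed the filter, and CD3E and PECAM1 had 0 counts. COL1A1 had 27 counts in siCTRL and 10 in siAPEX1, and ACTA2 had 18 and 27. EPCAM, the epithelial marker that did not pass, had 34 and 10, so failing the filter does not show absence. The libraries were scaled with edgeR's TMM factors, which lay between 1.10 and 1.13 in the siCTRL group and between 0.876 and 0.921 in the siAPEX1 group. For CPM, the count of a gene was divided by the total of its library times this factor. In bulk samples, fewer cells with an RNA and less of it per cell cannot be told apart.

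Of the 7 genes, SNORD13 (U13) held the most counts, and its level lay higher in the libraries labelled siAPEX1. Counts do not rank the RNAs themselves, since reads of U3 that fit several places and reads on SNORD118 are left out. SNORD13 (ENSG00000239039) lies on the plus strand of chromosome 8 (GRCh38, 33513475 to 33513578), is 104 bases long and overlaps no exon of another gene. It had 11432, 12526, 12769 and 11003 counts in siCTRL replicates 1 to 4. In siAPEX1 replicates 1 to 4 it had 15530, 16149, 18825 and 16432 counts. Every siAPEX1 library held more SNORD13 counts than every siCTRL library, although each was smaller in total. Its level was 5820 ± 154 CPM in siCTRL (SD, n = 4) and 12800 ± 318 CPM in siAPEX1 (SD, n = 4), with a coefficient of variation of 2.65% and 2.48%. Without any scaling beyond the total, SNORD13 took 0.654% ± 0.0136 of the counts in siCTRL and 1.14% ± 0.0167 in siAPEX1 (SD, n = 4 each). The log2 fold change was 1.14 (standard error 0.0787), a fold of 2.21 with a 95% interval from 1.98 to 2.45 that covers the spread between these libraries.

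U3 was next in counts and lay higher as well, with its counts almost wholly on SNORD3A (ENSG00000263934). This gene is annotated over 699 bases of chromosome 17 (19188016 to 19188714, plus strand), of which the RNA takes the first 217. Counts per gene do not show where in these 699 bases the reads lie. SNORD3A had 2886, 2842, 3391 and 2285 counts in siCTRL replicates 1 to 4 and 3555, 3217, 3837 and 3053 in siAPEX1 replicates 1 to 4. The raw counts overlapped between the groups, with siAPEX1 replicates 2 and 4 below siCTRL replicate 3. Scaled for library size they did not overlap, at 1380 ± 126 CPM (SD, n = 4) and 2620 ± 210 CPM (SD, n = 4). As a share of the library, SNORD3A took 0.156% ± 0.0151 and 0.234% ± 0.0228 (SD, n = 4 each). Its log2 fold change was 0.92 (standard error 0.0871), a fold of 1.89 with a 95% interval from 1.68 to 2.13. Its coefficient of variation was 9.10% in siCTRL and 8.0% in siAPEX1, above that of SNORD13.

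The other U3 genes gave almost no counts that could be assigned to them. SNORD3B-1 (ENSG00000265185, chromosome 17, 19061912 to 19062669, plus strand) had 1, 6, 5 and 2 counts in siCTRL and 1, 3, 8 and 7 in siAPEX1. SNORD3B-2 (ENSG00000262074, 19063346 to 19064136, minus strand) had 3, 4, 4 and 3 and then 3, 5, 4 and 3. Both genes are annotated well past the 217 bases of the RNA, and no stretch within the RNA occurs once. SNORD3C (ENSG00000264940, 19189665 to 19190245, minus strand) had 4, 4, 5 and 3 counts in siCTRL and 2, 3, 0 and 0 in siAPEX1. These 3 genes did not pass the filter, no fold change is given for them, and a count of 0 allows up to 3 counts. SNORD3A held between 99.5% and 99.8% of the U3 counts in each library, so that the sum over the 5 genes gave the same values, 1390 ± 127 CPM in siCTRL and 2630 ± 209 CPM in siAPEX1 (SD, n = 4 each) and 0.92 for the log2 fold change (standard error 0.0870). A change of SNORD3A against SNORD3B-1, SNORD3B-2 or SNORD3D could not be seen, since reads within these RNAs are not assigned to them. SNORD3C has more stretches that occur once than SNORD3A, and its 21 counts were too few for the comparison.

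SNORD3D (ENSG00000277947 and ENSG00000281000) and SNORD118 (ENSG00000200463) had 0 counts in every library. Both identifiers of SNORD3D cover each other and lie whole within an exon of a long non-coding RNA (ENSG00000262202) on the same strand, from 19112419 to 19112636 of chromosome 17. All 134 bases of SNORD118 (chromosome 17, 8173454 to 8173587, minus strand) lie within an exon of TMEM107 on the same strand, in the 3′UTR of that gene. A read that lies on more than one gene is left out by the counting, for the host as for the snoRNA. The 0 counts of SNORD118 and SNORD3D therefore say nothing about the level of U8 or of this U3 copy. Among all snoRNA genes, 147 of the 181 that lie whole within a same-strand exon of another gene had 0 counts in every library (81.2%), against 154 of the 345 that do not (44.6%). The exons are those of GENCODE 44, since the Ensembl release used for counting is not given in the sources used here.

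Among the other annotated U8 genes, 1 held nearly all counts and was described after SNORD118 had been found at 0. GENCODE 44 names it U8 (ENSG00000200496), on the plus strand of chromosome 11. Its RNA, also 134 bases long, has 89.6% identity with SNORD118 over 135 aligned positions, and the longest run of bases they share is 33. Every stretch of 50 bases in it, as in SNORD118, occurred once in the genome. The sequence is shown since nearly all counts on U8 copies rest on it, from chr11:123301390-123301523 of GRCh38, 5′ to 3′, with TGATGA and the last CTGA in capitals.
U8 copy: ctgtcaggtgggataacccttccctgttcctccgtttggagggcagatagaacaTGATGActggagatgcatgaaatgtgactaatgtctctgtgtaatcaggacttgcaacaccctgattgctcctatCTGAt

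The U8 copy had 681, 723, 752 and 515 counts in siCTRL replicates 1 to 4 and 757, 1059, 895 and 1077 in siAPEX1 replicates 1 to 4. Every siAPEX1 library lay above every siCTRL library. In the siAPEX1 group, replicates 2 and 4 lay above replicates 1 and 3. Its level was 324 ± 30.5 CPM in siCTRL (SD, n = 4) and 730 ± 127 CPM in siAPEX1 (SD, n = 4). The log2 fold change was 1.17 (standard error 0.101), a fold of 2.25 with a 95% interval from 1.96 to 2.58. This is the value of a copy and not of SNORD118, and whether the RNA of this copy is made into a working particle was not tested.

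**Figure D2:**
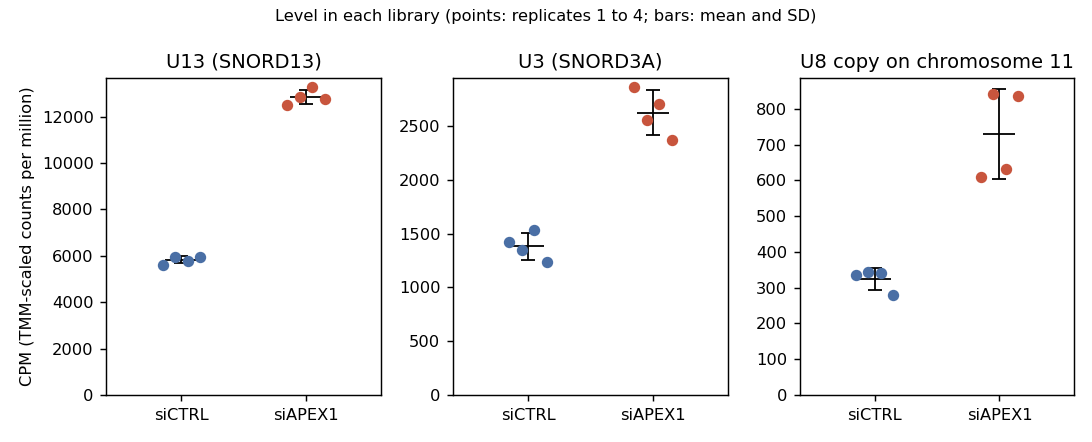
Level of SNORD13, SNORD3A and the U8 copy in each of the 8 libraries, in TMM-scaled counts (CPM) on axes that start at 0, with a point for each replicate and bars for the mean and SD of each group. All 4 siAPEX1 points lie above all 4 siCTRL points in each panel, and the U8 copy shows the widest spread in siAPEX1, from 610 to 841 CPM.

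Of the 7 genes, 3 had libraries that did not overlap between the groups on the CPM scale, SNORD13, SNORD3A and SNORD3B-2, each higher in siAPEX1. SNORD3B-2 rests on 3 to 5 counts per library, from 1.48 to 1.89 CPM in siCTRL and from 2.33 to 3.97 CPM in siAPEX1, with raw counts that overlap, and did not pass the filter. Of the 5368 genes tested, 753 (14%) were likewise higher without overlap. A gene was called where its edgeR adjusted p was no more than 0.05 and its log2 fold change reached 1 in either direction. By the fold, SNORD13 was past this threshold and SNORD3A below it. Over all genes tested, 193 (3.6%) were called higher and 305 (5.68%) lower. Since the genes were chosen by this contrast, nothing is read from these counts. The size of both differences depended on the scaling. With library size only, the log2 fold change was 0.81 for U13 and 0.59 for U3, and the median of all genes tested moved from −0.00313 to −0.34. With TMM factors from the other snoRNA genes it was 0.66 for U13 and 0.44 for U3, and the median of all genes was −0.48. The U8 copy gave 0.83 and 0.68 under these settings. The direction was the same under every scaling, filter, tool and left-out library that was run.

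Per 100 bases of RNA, U13 stood at 5600 ± 148 CPM in siCTRL and 12300 ± 306 CPM in siAPEX1 (SD, n = 4 each). On the same scale SNORD3A stood at 638 ± 58.1 and 1210 ± 96.7, and the U8 copy at 242 ± 22.7 and 545 ± 94.4. The order of levels was therefore U13, SNORD3A and the U8 copy in both groups, and neighbours in this order did not overlap within either group. The level of U3 on this scale covers only reads that can be placed on SNORD3A. The ratio of SNORD13 to SNORD3A counts does not depend on the scaling. It was 3.96, 4.41, 3.77 and 4.82 in siCTRL replicates 1 to 4 and 4.37, 5.02, 4.91 and 5.38 in siAPEX1 replicates 1 to 4, so that the groups overlapped. The ratio of U8 copy to SNORD3A counts lay between 0.222 and 0.254 in siCTRL and between 0.213 and 0.353 in siAPEX1, and overlapped too.

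Among the SNORD genes, the symbol given to box C/D snoRNAs, U13 and U3 had log2 fold changes at the upper end. Both were chosen with these values known, so their place is only described. Over all other genes tested, 97.7% had a lower log2 fold change than SNORD13 and 95.6% a lower one than SNORD3A. Of the 86 other SNORD genes tested, 0 had a larger log2 fold change than SNORD13, and 3 had a larger one than SNORD3A, namely SNORD13, SNORD92 (0.99) and SNORD65B (0.98). The 85 SNORD genes tested that are not U3 or U13 had a median log2 fold change of 0.465 (quartiles 0.193 and 0.678), with 54 higher and 8 lower at an edgeR adjusted p of at most 0.05. This median was 0.13 with library size only, where 29 were higher and 19 lower, and it turned to −0.0166 with factors from snoRNA genes, where 12 were higher and 24 lower. The 62 SNORA genes tested, which carry box H/ACA in place of box C/D, had a median of 0.526, which was 0.19 and 0.0416 under the same settings. At the thresholds of the calls, 0 of the 85 SNORD genes were higher and 1 was lower.

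**Figure D3:**
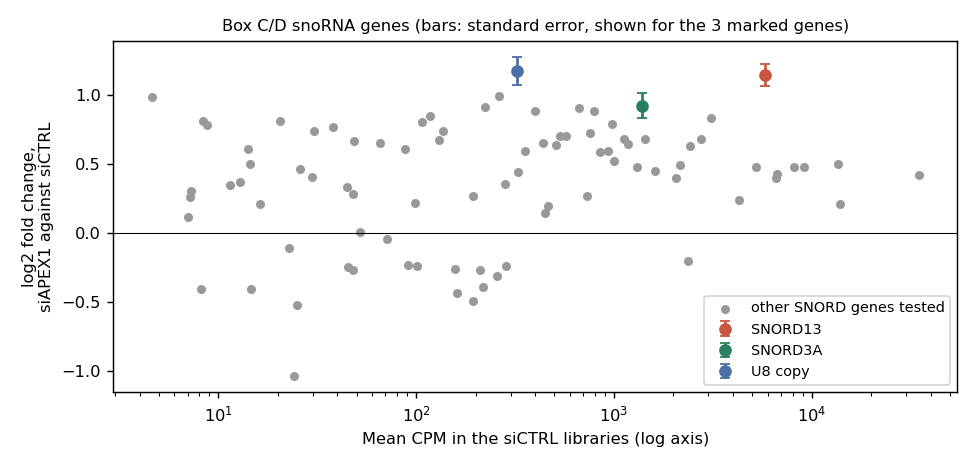
Log2 fold change of siAPEX1 against siCTRL for the SNORD genes tested and the U8 copy, against the mean CPM in siCTRL on a log axis, with bars for the standard error of the 3 marked genes. SNORD13 (1.14) and the U8 copy (1.17) lie above all grey points, and SNORD3A (0.92) lies among the highest, at mean levels of 5820, 324 and 1380 CPM.

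The letters of box C and box D are shared with most SNORD genes. TGATGA followed by CTGA, searched on the given strand only, was present in 227 of 313 SNORD genes (72.5%) and in 1 of 214 SNORA genes (0.467%). In the U3 RNAs the first TGATGA and the last CTGA begin at positions 158 and 209. In SNORD118 and the U8 copy they begin at positions 55 and 130, and in SNORD13 at positions 23 and 99. A match is a description of letters and not of a bound site.

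Further annotated copies of these RNAs held few counts apart from the U8 copy. Of 55 further U3 copies, 13 had a count, 295 in all, and 255 of them (86.4%) lay on one (ENSG00000212195, chromosome 17, 58631641 to 58631836), which had between 20 and 41 counts per library. Its level was 15.3 ± 4.02 and 24.9 ± 4.15 CPM in siCTRL and siAPEX1 (SD, n = 4 each), a log2 fold change of 0.69 (standard error 0.194). Of 22 further U8 copies, 5 had a count, and the copy on chromosome 11 held 6459 of their 6480 counts (99.7%). Of 4 further U13 copies, 2 had a count, with 26 of the 37 counts on SNORD13P3.

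Genes that work with these RNAs were grouped into 10 lists of partners, processome factors, assembly factors, nucleases and further RNAs. Of 67 genes of these lists that were tested, 6 rose and 6 fell at an edgeR adjusted p of at most 0.05, and 1 and 2 of these passed the threshold on the fold. This balance depended on the scaling, with 1 rise and 12 falls with library size only and 0 rises and 19 falls with factors from snoRNA genes. Over all genes tested, 31.7% passed the adjusted p, 15.9% rising and 15.8% falling, and 9.28% were called in either direction. The median log2 fold change was 0.0176 over the 64 protein-coding genes of the lists and −0.03 over all 4870 protein-coding genes tested. Of these 64 genes, 3 rose and 6 fell with TMM factors.

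Of the proteins of the U3 particle, 1 passed the adjusted p. Of 8 listed proteins 7 were tested, and 1 fell (median log2 fold change 0.0617). FBL, the methyltransferase of box C/D particles, stood at 76.3 ± 2.97 and 66.6 ± 5.62 CPM in siCTRL and siAPEX1 (SD, n = 4 each), with a log2 fold change of −0.20 (edgeR adjusted p = 0.173). The core proteins NOP56, NOP58 and SNU13 gave 0.16, 0.15 and 0.06 (edgeR adjusted p = 0.562, 0.635 and 0.866). MPHOSPH10, IMP3 and IMP4 form a complex on U3 that aids its pairing with the pre-rRNA. MPHOSPH10 and IMP3 gave 0.15 and −0.05 (edgeR adjusted p = 0.696 and 0.906). IMP4 fell from 8.80 ± 2.13 to 4.90 ± 2.51 CPM (SD, n = 4 each), by 0.88 on the log2 scale (edgeR adjusted p = 0.0392). Its adjusted p rose above 0.05 when any one of 6 libraries was left out, up to 0.273 without siAPEX1 replicate 3. With DESeq2 it was above 0.05 as well (adjusted p = 0.142). RRP9, which binds U3 alone, had 11 and 10 counts in the 2 groups and was not tested.

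In the rest of the small subunit processome, 1 gene of those tested passed the adjusted p. WDR36 of UTP-B (log2 fold change 0.83) and NOB1 of the other factors (−0.48) lay just above 0.05 (edgeR adjusted p = 0.0515 and 0.0552). Of the UTP-A proteins, which bind the 5′ end of the pre-rRNA, 4 of 6 were tested and 0 passed, with a median of 0.157. Of the UTP-B proteins 3 of 6 were tested and 0 passed, with a median of 0.362. Of 34 other factors 20 were tested, with a median of −0.0332. Here ESF1, a nucleolar factor of 18S rRNA maturation, rose from 17.8 ± 2.43 to 29.7 ± 4.98 CPM (SD, n = 4 each; log2 fold change 0.73, edgeR adjusted p = 0.00083). The rise did not pass the adjusted p with library size only (adjusted p = 0.0602) or with factors from snoRNA genes (adjusted p = 0.225).

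Of 16 genes that build, cap or move box C/D particles, 10 were tested, with a median of −0.036, and 1 rose and 1 fell. PIH1D1, a subunit of the R2TP chaperone that assembles these particles, fell from 9.89 ± 2.03 to 4.55 ± 2.36 CPM (SD, n = 4 each), by 1.09 on the log2 scale (edgeR adjusted p = 0.00795). Without siAPEX1 replicate 4 its adjusted p was 0.0729. TCOF1, which encodes the nucleolar protein treacle, rose from 6.53 ± 1.15 to 12.3 ± 1.43 CPM (SD, n = 4 each; log2 fold change 0.89, edgeR adjusted p = 0.00565). It did not pass the adjusted p with library size only (adjusted p = 0.0748) or with factors from snoRNA genes (adjusted p = 0.174). TGS1, the enzyme that makes the trimethylguanosine cap, had 44 and 38 counts in the 2 groups and was not tested.

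Among the host and the partners of U8, 6 of 10 genes were tested, and 1 rose and 2 fell. TMEM107, whose 3′UTR holds SNORD118, had between 11 and 15 counts in siCTRL and between 14 and 23 in siAPEX1. It rose from 6.46 ± 0.695 to 13.4 ± 2.08 CPM (SD, n = 4 each; log2 fold change 1.05, edgeR adjusted p = 0.000999), and its adjusted p was 0.0561 with factors from snoRNA genes. Reads that lie on SNORD118 are counted on neither gene. The LSM proteins bind U8 and other RNAs. LSM8 fell from 12.3 ± 2.28 to 5.10 ± 2.63 CPM (SD, n = 4 each), by 1.28 on the log2 scale (edgeR adjusted p = 0.00101). LSM7 fell from 22.7 ± 2.69 to 15.7 ± 2.15 CPM (SD, n = 4 each), by 0.52 (edgeR adjusted p = 0.0264). Its adjusted p rose above 0.05 without any one of 5 libraries (up to 0.104) and with DESeq2 (adjusted p = 0.127). NUDT16, which removes the cap of U8, and the helicase DDX51, which releases U8 from the pre-rRNA, were too low to be tested, with 28 and 13 counts and with 21 and 12 counts in the 2 groups.

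NAT10, which works with U13, and its adaptor THUMPD1 did not pass the adjusted p. NAT10, the acetyltransferase, stood at 6.19 ± 0.773 and 5.66 ± 2.76 CPM (SD, n = 4 each; log2 fold change −0.16, edgeR adjusted p = 0.765). THUMPD1, the adaptor of NAT10 for transfer RNA, stood at 12.6 ± 1.49 and 15.5 ± 4.0 CPM (SD, n = 4 each; log2 fold change 0.31, edgeR adjusted p = 0.301). Of 21 factors of promoters and 3′ ends of the small nuclear RNA type, 7 were tested, with a median of −0.0311. INTS3, a subunit of Integrator, fell by 0.80 on the log2 scale (edgeR adjusted p = 0.0471). Its adjusted p rose above 0.05 when any one of 7 libraries was left out (up to 0.191) and with DESeq2 (adjusted p = 0.18). Of 13 nucleases and helpers of pre-rRNA processing 7 were tested, with a median of −0.0333, and MTREX, the helicase of the nuclear exosome, fell from 35.2 ± 2.36 to 23.9 ± 2.85 CPM (SD, n = 4 each), by 0.56 (edgeR adjusted p = 0.00338).

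**Figure D4:**
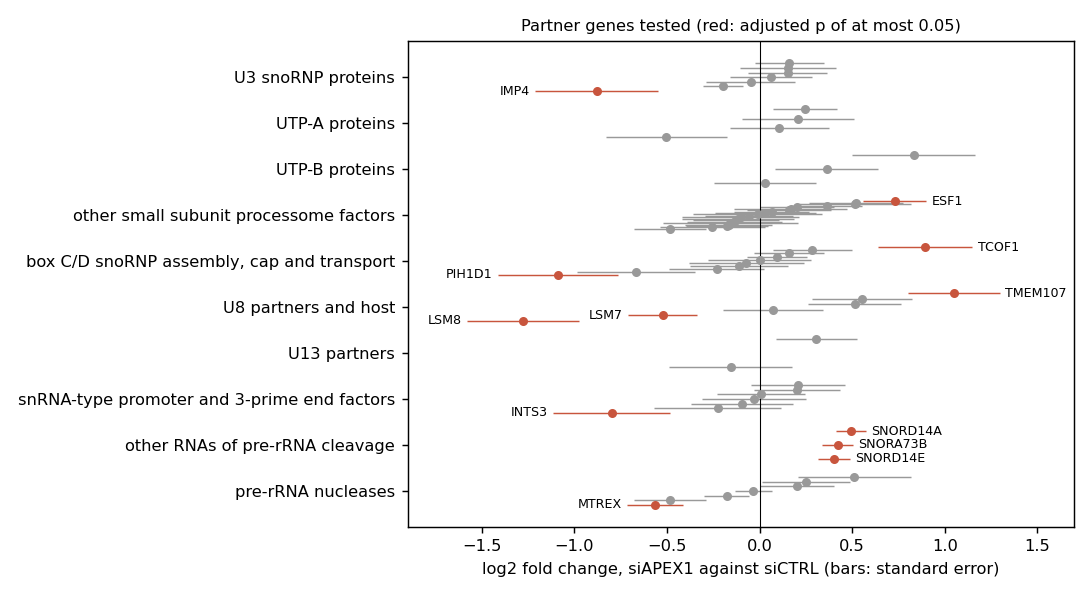
Log2 fold change of siAPEX1 against siCTRL for each tested gene of the 10 lists, with bars for the standard error and in red the genes with an adjusted p of at most 0.05. The named genes lie on both sides of 0, from LSM8 at −1.28 to TMEM107 at 1.05.

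Of 9 listed RNAs, other than U3 and U8, that take part in cleavages of the pre-rRNA, 3 passed the filter. These had smaller log2 fold changes than U3 and U13, which were chosen with their values known, and the difference was not tested. U17 (SNORA73A and SNORA73B), U14 (the SNORD14 genes) and U22 (SNORD22) are needed for 18S rRNA, and RMRP is the RNA of RNase MRP. SNORA73B rose from 2060 ± 140 to 2760 ± 84.3 CPM (SD, n = 4 each; log2 fold change 0.42, edgeR adjusted p = 7.94e-05). SNORD14A rose from 2150 ± 141 to 3020 ± 77.4 CPM (SD, n = 4 each; log2 fold change 0.49, edgeR adjusted p = 6.22e-06). SNORD14E rose from 6620 ± 601 to 8740 ± 836 CPM (SD, n = 4 each; log2 fold change 0.40, edgeR adjusted p = 0.000279). With library size only the same genes gave 0.0857, 0.157 and 0.0666, and none passed the adjusted p. With factors from snoRNA genes SNORA73B and SNORD14E turned to −0.0603 and −0.0796, with an adjusted p of 0.581 and 0.482, and SNORD14A gave 0.00952. SNORA73A, SNORD14B, SNORD14C, SNORD14D and both entries of SNORD22 had 0 counts in every library, and each lies whole within an exon of its host on the same strand (SNHG3, RPS13, HSPA8 or SNHG1). RMRP had 0 counts as well, with no overlapping exon in GENCODE 44.

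The genes whose levels followed U3 and U13 most closely over the 8 libraries were found by the root mean square difference of centred log2 CPM, a description of likeness that mostly reflects the difference between the groups. Nearest to SNORD13 were RNVU1-15, a variant U1 small nuclear RNA gene, at 0.0482, ENSG00000279602 at 0.0615 and RNVU1-27 at 0.0781, against a median of 0.639 over all genes. Their log2 fold changes were 1.10, 1.16 and 1.14. How well reads of the variant U1 genes can be told from those of similar copies was not examined, so their values are uncertain. Nearest to SNORD3A were SYNPO2 at 0.0849, DYNC2I1 at 0.0884 and SNORA53 at 0.0911, against a median of 0.556, with log2 fold changes of 1.07, 0.88 and 0.88.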

How the data were processed

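RNA-seq of 4 siCTRL and 4 siAPEX1 libraries was analysed as one table of counts per gene. Per the study's methods, the authors polyadenylated the RNA in place of ligating an adapter, read 100 bases from one end, removed adapters and poly-A with cutadapt, aligned to GRCh38 with STAR 2.5.3a and took its GeneCounts. The deposited values are these counts, whole numbers with no normalization. The annotation release and the strand column are not given in the sources used here. STAR's GeneCounts leaves out reads that align to several places or overlap several genes.

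Identifiers were matched to GENCODE 44 (57532 of 58302, with 770 unmatched). The filter of edgeR 4.0.16 in R 4.3.3 (filterByExpr, minimum count 10, minimum total 15) kept 5368 genes with 97.5% to 98.1% of the counts. TMM factors and the unpaired quasi-likelihood test were used, and p-values were adjusted over these genes by Benjamini-Hochberg. Genes were called at an adjusted p of no more than 0.05 where the log2 fold change reached 1 in either direction. Intervals are the estimate and 1.96 standard errors on each side. Log2 CPM used a prior count of 2. A floor of 3 counts was taken and covers counting error only. The programs were tested on simulated counts.

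The genes and lists were chosen with earlier results of these data known. Named are the 7 snoRNA genes, APEX1, set partners, up to 4 rises and 4 falls per list past the adjusted p, the most counted copies, and the 3 nearest genes by likeness. Genes named beyond this rule (SNORD92, SNORD65B and the U8 copy) were chosen after their values were seen. Sequences were read from GRCh38, at RefSeq coordinates for the U3 genes, and those of SNORD13 and SNORD118 are not printed here. Alternatives were other scalings, filters, DESeq2 1.42.0, a replicate block, a fold threshold of 0.75, APEX1 left out, and each library left out.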

Additional observations from a re-analysis of the deposited data

Results flagged for a closer look

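In the U8 copy on chromosome 11, siCTRL replicate 4 stood apart from the other siCTRL libraries, at 279 CPM against at most 342, with the gap to its nearest neighbour taking 0.882 of the range of the group. The limit used for such gaps is passed by chance in about 1 of 20 groups. Without this library the log2 fold change of the U8 copy was 1.11, against 1.17.

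The same copy held 6459 counts over the 8 libraries, while SNORD118, the U8 gene named for the comparison, had 0. These counts lie outside the 7 genes and were described after SNORD118 was found at 0.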

How the results depend on the processing

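The log2 fold changes of U3 (0.92) and U13 (1.14) kept their direction under 19 and 18 alternatives, and moved by less than the spread between replicates in 17 and 12 of them. Library size only gave 0.59 and 0.81, with 5 genes of the lists called in place of 3 and a split of 84 higher and 647 lower over all genes in place of 193 and 305. Factors from snoRNA genes gave 0.44 and 0.66, with 7 and 988 genes called in place of 3 and 498, of which 61 were higher and 927 lower. Factors from protein-coding genes gave 1.18 for U13. With all genes with at least 1 count U13 was 1.05, with 5 and 943 genes called. With at least 10 counts in every library U13 was 1.05, with 0 and 181 genes called, from fewer genes tested. With a fold threshold of 0.75, 6 and 934 genes were called. Leaving out 1 library gave 0.87 to 0.99 for U3, 1.12 to 1.18 for U13, 1 to 4 genes of the lists and 528 to 602 genes in all. Without siAPEX1 replicate 3, 1 gene of the lists was called. Apart from the filters and the threshold, whose effect on the counts follows from the genes they admit, the cause was not tested.

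The replicate numbers did not pair the libraries (correlations of same-numbered deviations between −0.0373 and −0.00348). With the replicate number as a block U3 was 0.92 and U13 1.14, 3 genes of the lists and 494 genes were called, and 4 genes of the lists in place of 6 fell by the adjusted p. The ratio of U13 to U3 levels per length was 9.55, which became 30.8 with the annotated length of SNORD3A and 4.58 with no length. SNORD118 at 0 counts gave no value under any alternative. U3 rests on few distinguishing bases, and most partner mRNAs on few counts, which limits what could be seen for them.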
